A study of Danio rerio with 8 samples.

Results

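The 9 genes described here belong to the endothelin, Hand2 and Msx circuit of the ventral pharyngeal arches, together with further arch genes. They include the ligand gene edn1, the receptor genes ednraa and ednrab, and hand2, msx1a, msx1b, tbx1 and eya1. They were picked by gene symbol from the 32057 genes of the deposited table, and each symbol matched 1 row. No cut on their values was used, but earlier results of these data were known when they were chosen. The values are FPKM (fragment counts divided by transcript length and library size) in chondrocytes of zebrafish (Danio rerio) larvae at 3 days after fertilisation. The 4 kat6a libraries come from kat6a-deficient larvae with the transgenes Tg(sox10:EGFP) and Tg(col2a1a:mcherry), and the 4 WT libraries come from larvae with the same transgenes and no kat6a lesion named. All larvae were kept at 28.5 degrees Celsius in medium with 0.003% PTU, which blocks pigment. Cells that carried both reporters were sorted from whole larvae, so cartilage of the head, fins and ear capsule may be mixed. The sox10 reporter marks neural crest and its derivatives, and the col2a1a reporter marks cartilage. The sources used here do not give the kind of kat6a lesion, the number of larvae in each sort or the relation between WT and kat6a larvae.

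Endothelin 1 is a secreted peptide that surrounding arch tissues present to neural crest cells of the lower jaw and lower hyoid arch. Its receptors couple to G proteins and turn on Dlx genes and then hand2, and loss of the pathway in zebrafish gives lower jaw cartilages an upper jaw character. Msx genes work with BMP signals in the ventral-most arch, tbx1 acts in pouch endoderm and arch mesoderm, and the coactivator Eya1 acts in arch, placode and muscle precursors. Kat6a is a MYST-type enzyme that acetylates histones. The question put to the data is whether these genes differ between kat6a-deficient and WT chondrocytes, and at what level chondrocytes of this age still carry them.

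The sort was checked first. All 7 chondrocyte markers, among them col2a1a, matn1 and sox9a, were above 0 in both groups, and their summed FPKM was 34677 to 61089 in kat6a and 28329 to 61963 in WT. The lowest sum of each group was its library numbered 1, where col2a1a stood at 10783 FPKM in kat6a and 8994 in WT, against 17360 to 20538 in the other 6 libraries. The markers did not move alike: acana was highest in both libraries numbered 1, at 2127 FPKM in kat6a and 2389 in WT against 1240 to 1636 in the other 6, and sox9a was highest in WT replicate 1, at 905. The sort gene sox10 was also highest in both, at 123 FPKM in kat6a and 144 in WT, against 63.8 to 84.1 in the other 6. Between 11010 and 16108 genes were above 0 in a library, and the read depth is unknown. The targeted gene kat6a averaged 15.4 ± 8.65 FPKM in kat6a and 20.6 ± 7.74 in WT (SD, n = 4 each), with limma adjusted p = 0.958. Among libraries that share a number kat6a had the lower value in 4 of 4 pairs, and the same held for 16.3% of all tested genes. The fit with the replicate number as a block gave an unadjusted limma p of 0.0315 and limma adjusted p = 0.458. In that fit 978 of 11763 tested genes were lower at an unadjusted p under 0.05. The sources used here do not say whether the lesion lowers the transcript, so it was not used as a check of the labels. A listed 0 was read only as a listed value, because 21 of 2837 genes with a median of at least 10 FPKM were also at 0 in some library.

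None of the 9 genes differed between kat6a and WT with p adjusted over all genes in any fit run, where ednrab and msx1a entered only the fit without a filter. Of the 7 that passed the filter of a mean of 0.5 FPKM, msx1b and eya1 were lower in kat6a at an unadjusted limma p under 0.05, and none was higher. That count of 2 was 0 without kat6a replicate 2, kat6a replicate 4 or WT replicate 4, and 1 without WT replicate 1, 2 or 3, under quantile normalisation, and with the block joined to median-ratio scaling or to leaving out the pair numbered 1. Over all 11763 tested genes the share lower at that unadjusted p was 3.92% and the share higher 0.646%, and the share called at an adjusted p under 0.05 was 0.017%, or 2 genes (1 gene, 0.0085%, with the replicate number as a block). Fold changes are given as the log2 of kat6a over WT, on log2(FPKM + 1) values, and were below 0 for 5 of the 7 tested members, where 69.5% of all tested genes were below 0. Their median was -0.39, and the median of all tested genes was -0.16. The groups overlapped for each of the 9 genes, where they did not overlap for 2.57% of tested genes in the lower and 0.561% in the higher direction. In bulk RNA a lower level per cell and fewer cells that carry a transcript cannot be told apart.

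**Figure D1:**
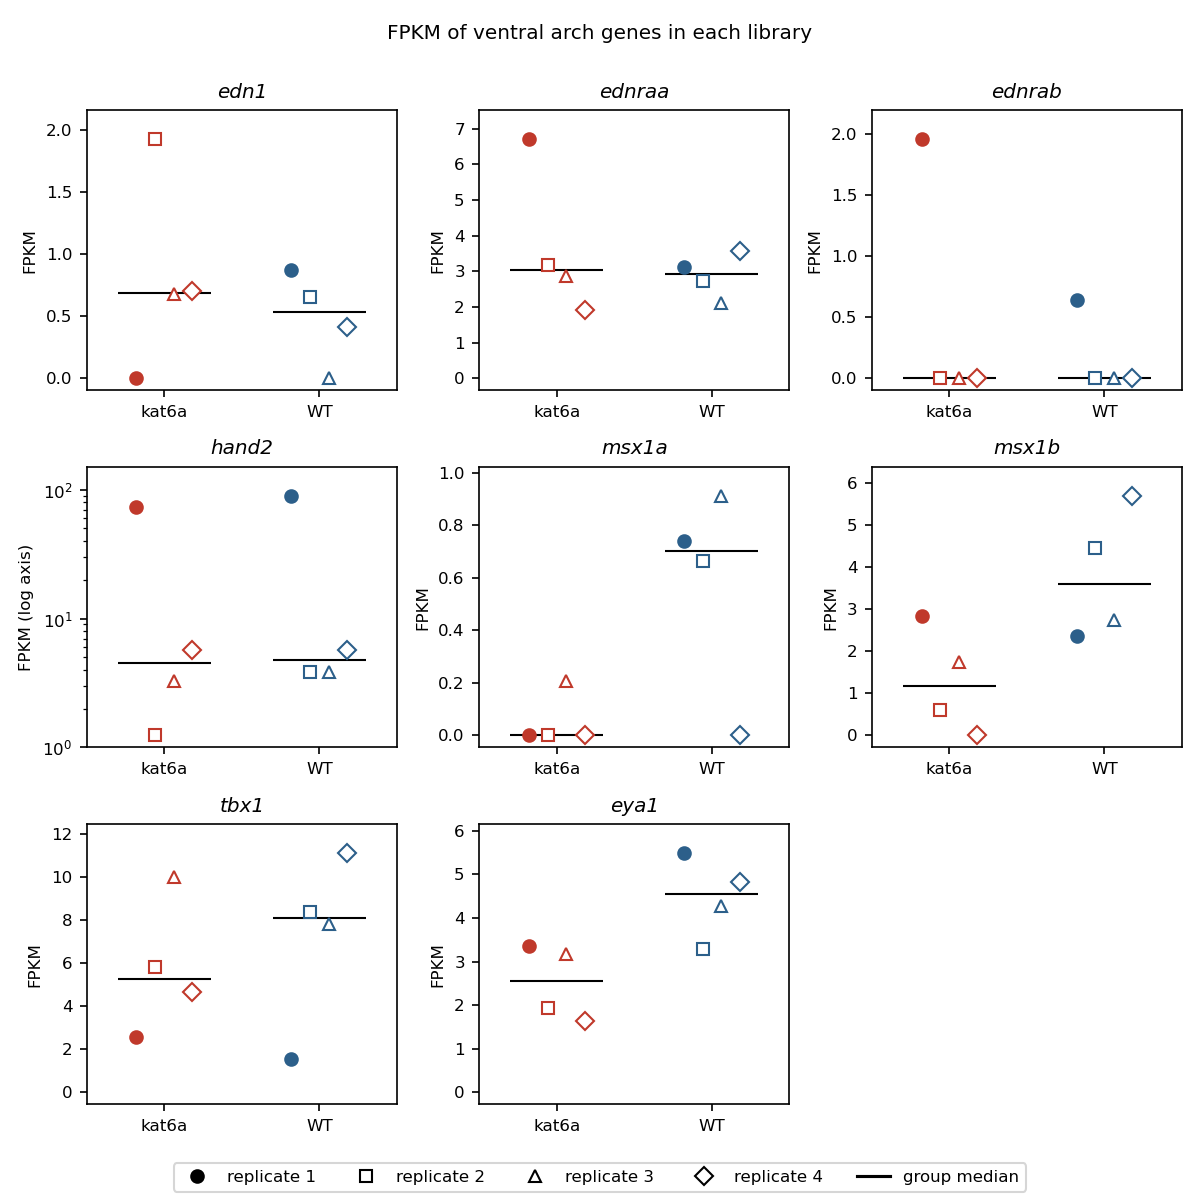
FPKM of 8 of the genes in the 4 kat6a (left, red) and 4 WT (right, blue) libraries; marker shape gives the replicate number, black lines the group median, and the hand2 panel has a log axis. In the eya1 and msx1b panels 3 of 4 kat6a points lie below every WT point, and in the hand2 panel both libraries numbered 1 (filled circles) lie above 70 FPKM while the other 6 stay under 6.

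By median FPKM over the 8 libraries the order was tbx1 at 6.83, hand2 at 4.77, eya1 at 3.32, ednraa at 3.00, msx1b at 2.55, edn1 at 0.668, msx1a at 0.104 and ednrab at 0. FPKM is per length, so levels of different genes can be set side by side. The ranges of all neighbours in this order overlapped. In 6 of 8 libraries hand2 exceeded eya1 and msx1b exceeded edn1, and tbx1 exceeded hand2 in 5 of 8. By mean FPKM hand2 stood above 87.4% of tested genes, tbx1 above 64.4%, eya1 above 49.2%, ednraa above 47.6% and msx1b above 40.9%, while edn1 stood above 6.26%. The hand2 mean rests on the libraries numbered 1, at 74.0 FPKM in kat6a and 89.2 in WT. Over the other 6 libraries its mean was 3.93 FPKM.

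The ligand gene edn1 (ENSDARG00000036912) was low in every library. Its FPKM was 0, 1.93, 0.676 and 0.703 in kat6a replicates 1 to 4, and 0.869, 0.659, 0 and 0.412 in WT replicates 1 to 4. The groups overlapped, each with 1 library listed at 0. This gave a log2 fold change of 0.23 ± 0.37 (SE), a 95% interval of -0.58 to 1.05 and a limma adjusted p of 0.987. Without kat6a replicate 2, the highest library, it was -0.028.

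The endothelin receptor genes were unequal in level. FPKM of ednraa (ENSDARG00000011876) was 6.71, 3.17, 2.87 and 1.90 in kat6a and 3.13, 2.72, 2.11 and 3.58 in WT. The groups overlapped, with kat6a replicate 1 highest. For ednraa the log2 fold change was 0.18 ± 0.33 (SE), its 95% interval -0.56 to 0.92 and its limma adjusted p 0.989; without kat6a replicate 1 it was -0.092. Its paralog ednrab (ENSDARG00000062262) was at 1.96 FPKM in kat6a replicate 1 and 0.644 in WT replicate 1, and listed at 0 in the other 6 libraries. With a mean of 0.326 FPKM it was not tested, and in the fit without a filter it had limma adjusted p = 0.913. So ednrab was listed above 0 only in the libraries numbered 1, in both genotypes. The log2 ratio of ednraa + 1 over ednrab + 1 was above 0 in 8 of 8 libraries, at 1.73 ± 0.33 in kat6a and 1.76 ± 0.37 in WT (SD, n = 4 each). The difference of -0.030 had a two-sided exact permutation p of 0.886, where the smallest possible is 0.0286; its sign turned in 4 of the 8 fits without 1 library, and the ratio rests on listed zeros of ednrab.

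Smooth muscle and mural cells also carry endothelin receptors. Of the 6 markers of those cells 4 were above 0 in kat6a and 3 in WT, with sums of 56.3 to 71.0 FPKM in kat6a and 29.9 to 69.7 in WT. Most of each sum was pdgfrb, which other mesenchyme also expresses. Of the contractile genes acta2 was at 0, 0.210, 0.903 and 0.913 FPKM in kat6a and 2.10, 0.767, 0 and 2.95 in WT, and tagln was at 0 in all kat6a libraries and at 1.46, 0.851, 0 and 0 in WT. Of the other 3, myh11a stood at 0.0879 FPKM and cnn1b at 0.376 in 1 kat6a library each and at 0 elsewhere, and desmb was at 0 in all 8. The sum of 6 endothelial markers was 17.4 to 32.4 FPKM in kat6a and 19.3 to 39.6 in WT. Most of it was fli1a, which arch mesenchyme also expresses, at 17.1 to 32.4 FPKM in kat6a and 18.9 to 39.2 in WT. It was highest in both libraries numbered 1. Of the others egfl7 reached at most 0.822 FPKM, while kdrl, cdh5, pecam1 and tie1 stayed at or under 0.484 in every library. The part of mural and endothelial cells in the receptor values was not tested.

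The tested member with the widest spread over the 8 libraries was hand2 (ENSDARG00000008305), a bHLH factor that sets ventral arch identity and also acts in the heart and the pectoral fin. Its FPKM was 74.0, 1.24, 3.30 and 5.66 in kat6a and 89.2, 3.84, 3.87 and 5.66 in WT. Both libraries numbered 1 were high, in kat6a and WT alike, and the other 6 lay between 1.24 and 5.66. The groups overlapped, and kat6a was lower in 3 of 4 pairs of libraries that share a number. Over all 8 libraries the log2 fold change of hand2 was -0.39 ± 1.18 (SE), its 95% interval -3.01 to 2.23 and its limma adjusted p 0.990. The replicate number as a block brought the SE to 0.22, with limma adjusted p = 0.543. Among the libraries numbered 2 to 4 hand2 averaged 3.40 ± 2.21 FPKM in kat6a and 4.46 ± 1.04 in WT (SD, n = 3 each), and the log2 fold change in the fit without the pair numbered 1 was -0.43. The unblocked value was -1.45 without kat6a replicate 1, 0.63 without WT replicate 1, 0.24 without kat6a replicate 2, -0.78 without WT replicate 2 or 3, -0.63 without WT replicate 4 and -0.071 without kat6a replicate 3.

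How far hand2 stood apart was compared with all tested genes. The lower of its FPKM values in the libraries numbered 1 was 13.1 times the highest of the other 6 libraries. That ratio ranked 42 among the tested genes for which it could be computed, and 65 of those reached a ratio of 10. A gene at 0 in all of the other 6 libraries has no such ratio and was not ranked. Both libraries numbered 1 were above the other 6 for 28.5% of tested genes and below them for 6.21%. The follistatin gene fsta, named after its values were seen, which encodes a secreted BMP and activin antagonist and is on the arch patterning list, had a ratio of 30.4. Its FPKM was 20.8, 0.0563, 0.273 and 0.190 in kat6a and 24.7, 0.469, 0.515 and 0.686 in WT. The tested gene with the centred log2 profile nearest to hand2 over the 8 libraries, among 272 of like spread, was col8a2, which encodes a short-chain collagen. Its FPKM was 2679, 134, 192 and 226 in kat6a and 4037, 205, 268 and 241 in WT. The root mean square difference between the profiles was 0.28 on the log2 scale, against a median of 1.55 over the 272 genes. As the smallest of the 272, the difference lies below that median by construction.

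Cell type markers in the libraries numbered 1 were read beside hand2. The sum of 5 heart markers was 0.411 FPKM in kat6a replicate 1 and 0.522 in WT replicate 1, and its highest values were 5.77 in kat6a replicate 4 and 17.1 in WT replicate 4. In both libraries numbered 1 the heart genes myl7, cmlc1, nppa and tnnt2a were listed at 0. The same held in kat6a replicate 3 and WT replicates 2 and 3, where the heart sum was lower still, at 0.230, 0.172 and 0.0716 FPKM. The sum of 5 fin fold markers was 11.2 FPKM in kat6a replicate 1 and 16.1 in WT replicate 1, each within the range of the other libraries of its group (6.22 to 14.4 in kat6a numbers 2 to 4, and 7.10 to 63.1 in WT numbers 2 to 4). The chondrocyte sum was lower in the libraries numbered 1, while acana and sox10 were higher there than in the other 6, as given above. The part of these differences in the hand2 values was not tested.

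**Figure D2:**
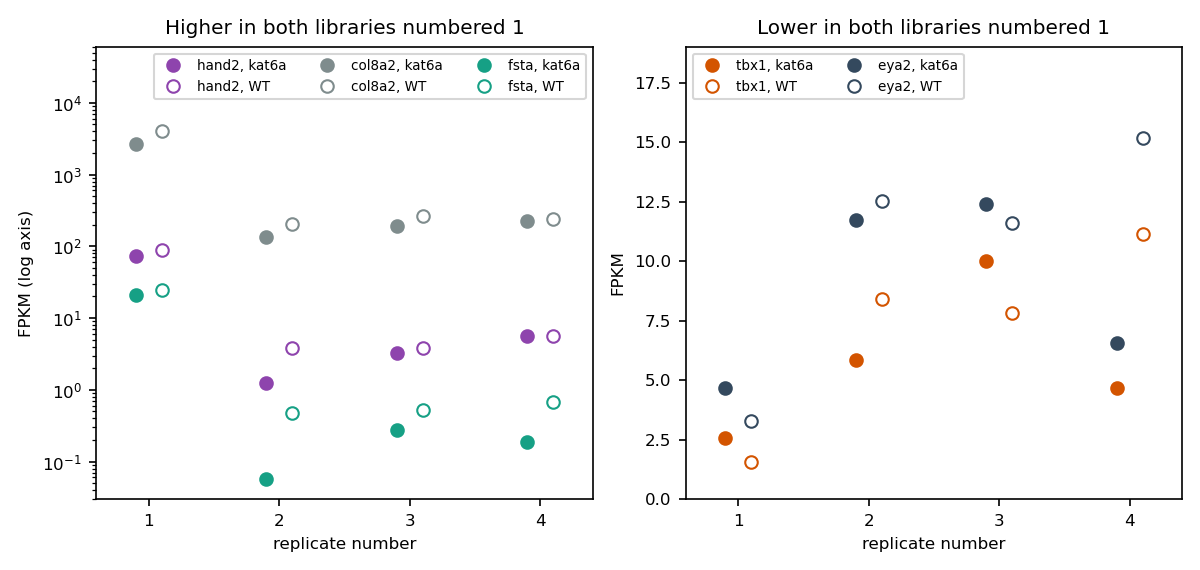
FPKM by replicate number in kat6a (filled) and WT (open) libraries; left, hand2, col8a2 and fsta on a log axis, and right, tbx1 and eya2 on a linear axis. In the libraries numbered 1 hand2 is at 74.0 FPKM in kat6a and 89.2 in WT and tbx1 at 2.57 in kat6a and 1.54 in WT, on opposite sides of the other 6 libraries.

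Msx homeobox genes encode repressors of the ventral arch and other BMP-responsive tissue, and msx1b was more abundant than its paralog msx1a. FPKM of msx1b (ENSDARG00000008886) was 2.83, 0.615, 1.75 and 0 in kat6a and 2.36, 4.46, 2.74 and 5.70 in WT. The kat6a libraries numbered 2 to 4 lay below every WT library, and number 1 overlapped. Its log2 fold change was -1.19 ± 0.44 (SE), with a 95% interval of -2.17 to -0.21, an unadjusted limma p of 0.0220 and limma adjusted p = 0.958. It was -2.23 with a pseudocount of 0.1, a value that rests on the listed 0 of kat6a replicate 4. Without the pair numbered 1 it was -1.65, with limma adjusted p = 0.695.

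The paralog msx1a (ENSDARG00000116118) was listed at 0 in kat6a replicates 1, 2 and 4 and at 0.208 FPKM in replicate 3, and stood at 0.738, 0.663, 0.912 and 0 in WT. The 3 WT libraries above 0 exceeded every kat6a library, and the listed 0 of WT replicate 4 made the groups overlap. With a mean of 0.315 FPKM it was not tested. The fit without a filter gave a log2 fold change of -0.55 ± 0.20 (SE), an unadjusted limma p of 0.0259 and limma adjusted p = 0.861, where 3.75% of 19444 genes were lower at that unadjusted p and 0% were called. The log2 ratio of msx1a + 1 over msx1b + 1 was below 0 in 7 libraries and at 0 in the eighth, kat6a replicate 4, where both genes were listed at 0. It was -0.95 ± 0.82 in kat6a and -1.59 ± 0.84 in WT (SD, n = 4 each), a difference of 0.64. The two-sided exact permutation p was 0.343. That difference follows from the log2 fold changes of the paralogs given above and is not a separate result. With a pseudocount of 0.1 it was 0.30, at an exact permutation p of 0.914. The ratio rests on the listed zeros of msx1a, in 4 of 8 libraries.

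The other Msx genes of the table were msx2a, msx2b and msx3. Above 0 in every library, msx2a, named after its values were seen, averaged 0.938 ± 0.33 FPKM in kat6a and 1.06 ± 0.27 in WT (SD, n = 4 each). For msx2a the log2 fold change was -0.093 ± 0.26 (SE), at a limma adjusted p of 0.989. FPKM of msx3 was 4.47, 0.571, 1.84 and 1.41 in kat6a and 5.35, 1.41, 2.36 and 2.89 in WT, which is -0.44 ± 0.43 (SE) as a log2 fold change, at a limma adjusted p of 0.968. Named after its values were seen, msx2b was listed at 0 in all 4 kat6a libraries and stood at 1.28, 0.335, 0.271 and 0.966 FPKM in WT. Its groups did not overlap, where groups did not overlap downwards for 2.1% of genes in the fit without a filter. There msx2b had an unadjusted limma p of 0.00518 and limma adjusted p = 0.861. Of the 19444 genes of that fit 3.75% were lower at an unadjusted p under 0.05. As msx2b was named after these same values were seen, neither its lack of overlap nor its p is a separate result. The sum of fin fold markers, from a tissue in which Msx genes are active, was 6.22 to 14.4 FPKM in kat6a and 7.10 to 63.1 in WT, and 5 epidermal markers summed to 9.56 to 47.5 FPKM in kat6a and 26.5 to 346 in WT. Both sums were highest in WT replicate 4, which also had the highest msx1b, while msx1a was listed at 0 there. The other WT libraries did not follow that order. Both sums were lowest of the WT group in replicate 2, where msx1b was at 4.46 FPKM. In WT replicate 1 the sums were 16.1 and 70.1 FPKM, with the lowest msx1b of the WT group, at 2.36. Without WT replicate 4 the msx1b log2 fold change was -1.01, at an unadjusted limma p of 0.0688. That p was also above 0.05 without kat6a replicate 2 (0.0567), kat6a replicate 4 (0.0599) or WT replicate 2 (0.0557). The part of these tissues in the Msx values was not tested.

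The T-box gene tbx1 (ENSDARG00000031891) acts in pharyngeal pouches, arch mesoderm and the ear, and its human counterpart lies in the region deleted in DiGeorge syndrome. Its FPKM was 2.57, 5.84, 10.0 and 4.67 in kat6a and 1.54, 8.40, 7.81 and 11.1 in WT. The groups overlapped, and in each the library numbered 1 was the lowest. For tbx1 this came to a log2 fold change of -0.19 ± 0.51 (SE), with a 95% interval of -1.32 to 0.95 and limma adjusted p = 0.989. Its sign turned without kat6a replicate 1, at 0.083, without WT replicate 4, at 0.071, and under quantile normalisation, at 0.016; it was -0.68 without WT replicate 1, -0.46 without kat6a replicate 3, -0.052 without WT replicate 2 and -0.083 without WT replicate 3. Without the pair numbered 1 it was -0.41.

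The profile of tbx1 over the 8 libraries was closest to that of eya2, another Eya gene, among 4540 tested genes of like spread. FPKM of eya2 was 4.67, 11.7, 12.4 and 6.57 in kat6a and 3.28, 12.5, 11.6 and 15.2 in WT. The root mean square difference between the centred log2 profiles was 0.19, against a median of 1.11 over the 4540 genes. As the smallest of the 4540, the difference lies below that median by construction. Markers of pharyngeal endoderm were low throughout, with a sum over 5 genes of 1.81 to 5.33 FPKM in kat6a and 3.54 to 4.34 in WT. Of these nkx2.3 and pax1b were at 0 in all 8 libraries, and the sum was made up mainly of pax1a and pax9, which cartilage precursors can also express. The sum of 8 inner ear markers was 1.15 to 3.50 FPKM in kat6a and 2.04 to 10.7 in WT. The value of 10.7 was that of WT replicate 4, and the other WT libraries reached at most 4.66. In every library the largest part of the sum was otog, and in kat6a only otog and tecta were above 0. The part of endoderm or ear cells in the tbx1 values was not tested.

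Eya1 is a transcriptional coactivator and protein phosphatase of arch and placode cells. FPKM of eya1 (ENSDARG00000014259) was 3.35, 1.94, 3.18 and 1.63 in kat6a and 5.49, 3.30, 4.27 and 4.83 in WT. Again 3 of 4 kat6a libraries lay below every WT library, and kat6a replicate 1 exceeded WT replicate 2 by a small margin. Means were 2.52 ± 0.87 FPKM in kat6a and 4.47 ± 0.93 in WT (SD, n = 4 each), and the mean of kat6a came to 56.4% of that of WT. The log2 fold change was -0.65 ± 0.28 (SE), with a 95% interval of -1.28 to -0.030, an unadjusted limma p of 0.0415 and limma adjusted p = 0.958. The value was between -0.84 and -0.44 in all alternatives run. In the authors' deposited table, whose fold runs WT over kat6a, eya1 had a fold of 1.39, a p of 0.0147 and a q of 0.877. In the authors' deposited table msx1b had a fold of 2.08 at a p of 0.109, tbx1 of 1.47 at a p of 0.338 and msx1a of 1.48 at a p of 0.0771. The authors' deposited table puts hand2 at a fold of 0.571 (p 0.397), on the other side from the log2 fold change given here. It puts edn1 at 0.901 (p 0.735), ednraa at 0.773 (p 0.248) and ednrab at 0.699 (p 0.168), and in the authors' deposited table every q of these genes was at least 0.877. In 4 of 4 pairs of libraries that share a number, kat6a was below WT for eya1, and the same held for 16.3% of all tested genes.

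Tissues other than cartilage also use Eya1. The sum of 8 skeletal muscle markers was 483 to 815 FPKM in kat6a and 376 to 562 in WT, and was made up almost wholly of genes of differentiated muscle. Of the early muscle genes myod1 was at 0 in all kat6a libraries and at 0.166, 0, 0 and 0.750 FPKM in WT, and myog was at 0 in 7 libraries and at 0.0490 in WT replicate 2. Inner ear sums are given above. Lens markers, 5 genes picked from earlier results of these data, summed to 0 to 16.6 FPKM in kat6a and 64.5 to 185 in WT, without overlap. As the picking used these same libraries, that lack of overlap is not a separate result. The part of muscle, lens or ear cells in the eya1 values was not tested. The tested gene nearest in profile to eya1 was adka, with a root mean square difference of 0.091. For other members it was pdxdc1 for edn1 (0.22), si:dkey-16p6.2 for ednraa (0.10) and rasd1 for msx1b (0.28).

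**Figure D3:**
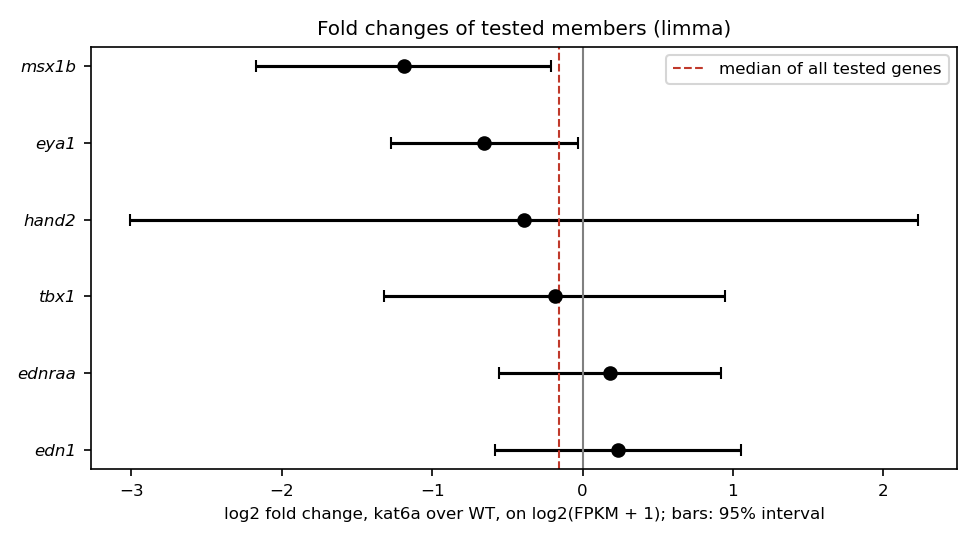
Log2 fold change (kat6a over WT) of edn1, ednraa, tbx1, hand2, eya1 and msx1b, from log2(FPKM + 1) values, with bars for the 95% interval from limma; the dashed line is the median of all tested genes, -0.16. The intervals of msx1b and eya1 end below 0, at -0.21 and -0.030, before adjustment over all genes, and that of hand2 is the widest shown.

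Some members lie within the annotated span of another gene. In the RefSeq annotation of assembly GRCz12tu, which is not the build of the table and was used only for neighbours, hand2 lies within cep44, msx1b within gsk3bb and tbx1 within srrm4. FPKM of cep44 was 0 to 0.749 in kat6a and 0 to 1.28 in WT, with 0 in kat6a replicate 1, where hand2 was at 74.0, and the highest value of all 8 libraries in WT replicate 1, where hand2 was at 89.2. FPKM of srrm4 was at most 0.443 in any library. No values were found for gsk3bb, so it could not be set beside msx1b. The sources used here do not say whether the counting used strand.

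Other genes of the endothelin axis gave no call. Of 16 listed genes 15 were in the table, 9 passed the filter, and none was lower or higher at an unadjusted limma p under 0.05. Fold changes were below 0 for 8 of 9, with a median of -0.34 on the log2 scale, where 69.5% of all tested genes were below 0. The gene ece1 encodes the enzyme that cuts the endothelin precursor to its active form. Its FPKM was 5.54, 1.39, 3.90 and 0 in kat6a and 9.34, 3.99, 3.12 and 5.07 in WT, which is -1.02 ± 0.56 (SE) as a log2 fold change, at a limma adjusted p of 0.958. The proprotein convertase genes furina and furinb averaged 30.6 ± 16.2 and 1.17 ± 0.71 FPKM in kat6a, and 35.9 ± 8.78 and 2.77 ± 2.71 in WT (SD, n = 4 each). The Gq family gene gna11b was above 0 in every library. Named after their values were seen, its paralog gna11a was also above 0 in all 8, while gnaq and the receptor genes ednrba and ednrbb were listed at 0 in all 8. The target factor genes mef2ca and mef2cb, which act below endothelin in jaw cartilage, averaged 9.05 ± 2.86 and 9.94 ± 4.18 FPKM in kat6a, and 7.16 ± 1.55 and 12.1 ± 2.76 in WT (SD, n = 4 each).

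Arch patterning genes had 1 of 19 tested members lower at an unadjusted limma p under 0.05, none higher and none called. Of all tested genes 3.92% were lower at that p. Fold changes were below 0 for 13 of 19, with a median of -0.26, where 69.5% of all tested genes were below 0. The endothelin target dlx4a was at 2.18, 0.576, 3.05 and 0 FPKM in kat6a and 3.70, 3.06, 2.12 and 1.80 in WT. The forkhead genes foxf1 and foxf2a, which respond to Hedgehog signals in facial cartilage, averaged 8.65 ± 3.26 and 3.52 ± 1.52 FPKM in kat6a, and 12.6 ± 2.63 and 5.27 ± 0.76 in WT (SD, n = 4 each). The most abundant genes of the list were nkx3.2, which marks the jaw joint, at 47.4 ± 8.05 FPKM in kat6a and 57.5 ± 14.1 in WT, and the homeobox gene prrx1a at 15.6 ± 2.67 FPKM in kat6a and 17.7 ± 2.19 in WT (SD, n = 4 each).

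Among the other Msx, Eya and Dach genes, related homeobox genes and genes linked to Tbx1, 11 of 20 passed the filter and none was lower or higher at an unadjusted limma p under 0.05. Fold changes were below 0 for 8 of 11, with a median of -0.17, where 69.5% of all tested genes were below 0. The homeobox gene six4a averaged 0.801 ± 0.32 FPKM in kat6a and 1.93 ± 1.32 in WT, and six2a 5.96 ± 0.92 in kat6a and 4.64 ± 0.82 in WT (SD, n = 4 each). The adaptor gene crkl averaged 16.8 ± 3.94 FPKM in kat6a and 15.6 ± 4.36 in WT (SD, n = 4 each). FPKM of eya3 was 5.02, 0.203, 1.69 and 0.710 in kat6a and 4.06, 2.15, 2.15 and 1.81 in WT. Named after their values were seen, six4b and dachd were listed at 0 in all 4 kat6a libraries and were above 0 in 3 WT libraries each. Each was at 0 in the remaining WT library, so the groups overlapped. Neither passed the filter. In the fit without a filter their unadjusted limma p was 0.0179 and 0.0125, and limma adjusted p was 0.861 for both. In that fit 3.75% of 19444 genes were lower at an unadjusted p under 0.05. As six4b and dachd were named after these same values were seen, their p is not a separate result. The ligand gene fgf8a, also named after its values were seen, was listed at 0 in all 8 libraries.

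**Figure D4:**
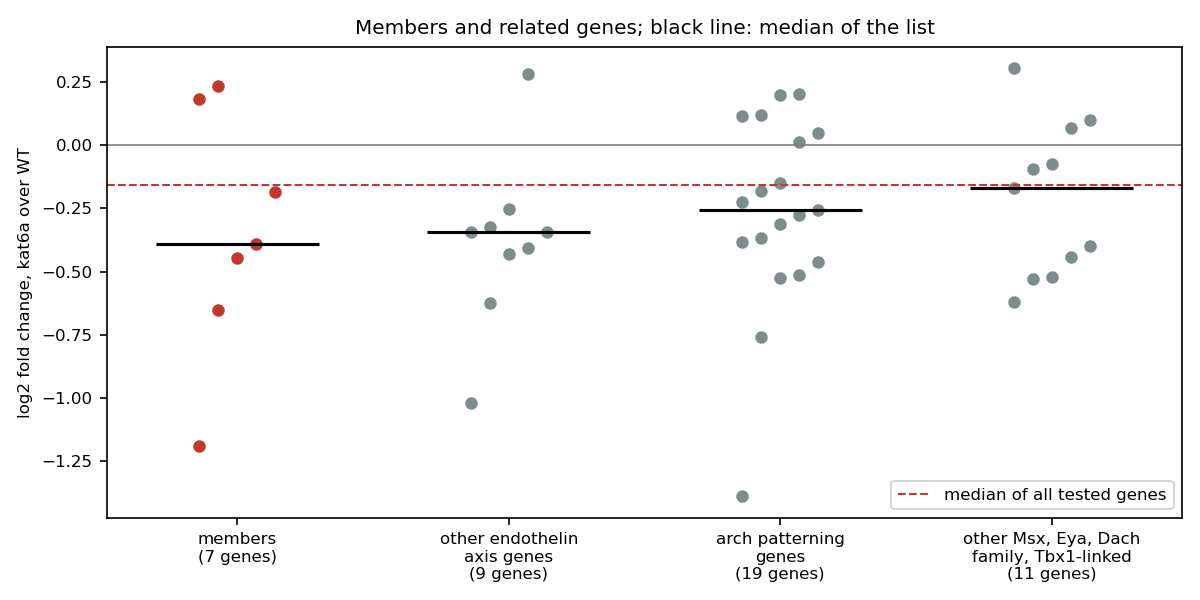
Log2 fold change, kat6a over WT, of the tested members and of the tested genes of 3 related lists; each point is a gene, black lines are list medians and the dashed line is the median of all tested genes, -0.16. The medians are -0.39 for the members, -0.34 for the other endothelin axis genes, -0.26 for arch patterning genes and -0.17 for the other family genes, which turned to 0.0060 under quantile normalisation.

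These medians move with the scale of the libraries. Median-ratio scaling put the median of all tested genes at -0.041 and that of the 7 members at -0.25. Upper-quartile scaling put them at -0.13 and -0.37, and quantile normalisation at 0.017 and -0.14. The median of the other Msx, Eya and Dach genes, related homeobox genes and genes linked to Tbx1 turned to 0.0060 under quantile normalisation, while the medians of the endothelin axis and arch patterning lists stayed below 0 under each scaling. The signs of eya1 and msx1b were the same under each scaling.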

How the data were processed

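The authors deposited 1 table of FPKM values, per the file headers, for 32057 genes in 4 kat6a and 4 WT libraries. The submitters' processing notes name HISAT2, StringTie and build GRCz10, with no versions or settings. Per the file headers it holds 3 more columns by the authors, a fold (a ratio that runs WT over kat6a, from the values), a p-value and a q-value. Libraries were matched to samples by group and library index, and columns that could not be matched numbered 0. The library name of WT replicate 4 repeats the number 3, so its title was followed.

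FPKM keeps no read counts, low values showed no common step, and depth is unknown, so no counting interval was computed. The test of kat6a against WT was limma (3.58.1, R 4.3.3) with a trend in the prior variance, on log2(FPKM + 1), for genes with a mean of at least 0.5 FPKM over the 8 libraries, two-sided, with Benjamini-Hochberg adjustment over all tested genes and a threshold of 0.05. Paralog ratios used exact permutation tests. The design calls the libraries biological replicates.

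Libraries of both groups share replicate numbers. Over genes, the deviations of same-numbered libraries from their group means had a Pearson r of 0.589 (number 1), 0.347 (number 2), 0.127 (number 3) and 0.151 (number 4). The labels state no pairing and libraries with different numbers were not compared. These values therefore do not show that the numbers pair the libraries. A fit with the replicate number as a block was run as an alternative.

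Members and lists were chosen with earlier results of these data known. Named genes are the members, kat6a, from each list the 4 tested genes with the smallest p and the 2 highest in mean FPKM, and for each tested member the gene with the nearest profile, the smallest root mean square difference between centred log2 values among genes whose SD is within a factor of 1.5. Of the genes so named, 2 are not reported here, and they stayed in every test, median and count. Others are said to be named after their values were seen, or describe markers and neighbours. Alternatives were the pseudocount, the filter, the scaling, the block and leaving out libraries. No coordinates or sequences are given, because none of the build of the table were at hand.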

Additional observations from a re-analysis of the deposited data

Results flagged for a closer look

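In a group of 4 libraries, the gap of a library to the nearest of the others was set against the range of the group. A library was marked when that ratio passed the 95% critical value of Dixon's test. Chance does so in about 1 of 20 groups of normally distributed values, and FPKM values need not be so distributed. In all, 18 groups were examined and 5 libraries were marked. In 3 of the 5, those of ednrab and msx1a, the other 3 libraries are listed at 0, so any value above 0 would have been marked and that rate does not apply. For hand2 they were kat6a replicate 1, at 74.0 FPKM, and WT replicate 1, at 89.2 FPKM. For ednrab they were kat6a replicate 1, at 1.96 FPKM, and WT replicate 1, at 0.644 FPKM, with the other libraries listed at 0. For msx1a it was kat6a replicate 3, at 0.208 FPKM, the 1 kat6a library above 0. The 4 values of hand2 and ednrab belong to the same pair of libraries, which also held the lowest chondrocyte marker sums of their groups and the highest acana and sox10 values of all 8 libraries.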

How the results depend on the processing

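No member was called in any alternative; the smallest limma adjusted p of a member was 0.451, for eya1 with the replicate block, and the block changed no call of a member. Fold changes of eya1 and msx1b kept their sign in every alternative that could be fitted. A change of filter alone, or the replicate block alone, cannot move these values. Both genes were also singled out by their unadjusted p in the fit reported, which makes a kept sign more likely. With 1 library left out, the log2 fold change was -0.77 to -0.52 for eya1, -1.49 to -0.85 for msx1b, -0.028 to 0.49 for edn1, -0.092 to 0.38 for ednraa, -1.45 to 0.63 for hand2 and -0.68 to 0.083 for tbx1. The difference in the ratio of ednraa to ednrab was -0.18 to 0.11, and that of msx1a to msx1b 0.26 to 0.97. Elsewhere the sign turned for tbx1 and ednraa: tbx1 stood at 0.016 under quantile normalisation, and ednraa at -0.058 without the pair numbered 1, with or without the replicate block. The cause was not tested. The number of genes called over the whole table, 2 in the fit reported, was 1 with a pseudocount of 0.1, 1 with the replicate block, and 0 without a filter, under each scaling, with the block and median-ratio scaling, and without the pair numbered 1, with or without the block; with 1 library left out it was 0 to 5, with 5 without kat6a replicate 4 and 0 without kat6a replicate 2 or 3 or WT replicate 2, 3 or 4. The number of list genes at an unadjusted p under 0.05, 1 in the fit reported, was 4 without a filter, 2 under upper-quartile scaling, 2 with the replicate block, 3 without the pair numbered 1 and 2 when the block was added to that, and 1 to 4 with 1 library left out. The fit that joins the block with leaving out the pair numbered 1 was chosen after seeing the data. Log2 fold changes and paralog ratios of genes with means under 1 FPKM, such as edn1, ednrab and msx1a, depend on the pseudocount. The precision of levels that low cannot be stated without read depth.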
